A study of Mus musculus with 9 samples.

Results

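The Wt1 locus was examined in ATAC-seq peak lists from 3 mouse osteosarcoma cell lines, and its left end, where Wt1 begins, carried a strong peak in every library of 1 line and no peak in the others. Wt1 lies on chromosome 2 at 105126529 to 105173614 (GRCm38), a span of 47.1 kb. Its members were taken by position, as every peak that lay within 100 kb of that span, so the window ran from 105026529 to 105273614. It held 190 of the 648618 peaks in the 9 lists. Merged where they overlapped by 1 bp or more, these peaks formed 42 of 124230 regions. The gene was chosen for its difference between lines, so its values are a description and carry no test.

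ATAC-seq uses the Tn5 transposase to cut and tag accessible DNA, and each peak is a stretch where the authors' peak caller found more cuts than in the local background. The R172H line carried a single p53 allele bearing the R172H substitution (p53R172H/-). The R245W line had the R245W substitution in the same arrangement (p53R245W/-), and the null line lacked p53 altogether (p53-/-). Each genotype was 1 line grown from a primary osteosarcoma, with 3 libraries per line, in DMEM with serum. All of them therefore lack a wild-type p53 copy, and no line with normal p53 was analysed here. With 1 line per genotype, an effect of genotype cannot be told apart from any other property of a line. Whether replicate libraries were made from separate cultures is not stated in the labels, so their spread may be technical.

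WT1 is a zinc finger transcription factor, first known as the tumour suppressor lost in Wilms' tumour of the kidney. It is needed to form the kidney, the gonads and the mesothelium, the cell layer that lines body cavities, and it marks podocytes and the epicardium in later life. Outside these tissues the gene is usually silent, and it is expressed again in several cancers. In mouse it is transcribed away from its left end, head to head with the antisense non-coding RNA gene Wt1os, whose right end at 105126510 almost touches it.

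The lists held 65199 to 79424 peaks. Read depth was unknown. The most frequent background pile-up in a library, a relative measure of depth, ran from 4.77 to 6.39, with 4.77 to 5.36 in R172H, 5.65 to 6.39 in R245W and 5.02 to 5.80 in null libraries. Of 9 osteoblast marker genes, 7 had a peak within 1000 bp of a gene end in all 9 libraries, as did 55% of 21883 protein-coding genes, the transcription factor genes Runx2 and Sp7 among them, and Bglap and Ibsp had none in any. Of 5 blood markers, Cd68 was open in all 9 libraries, Cd3e in the 3 R172H and Csf1r in the 3 R245W libraries, and Ptprc and Itgam in none. Of 4 endothelial markers Kdr was open in all 9 libraries and Pecam1, Cdh5 and Tek in none. Of 4 epithelial markers Krt8 was open in all 9, Cdh1 and Krt18 in none, and Epcam in 0 R172H, 3 R245W and 2 null libraries. Of 3 muscle markers Myod1 was open in 2 R172H, 3 R245W and 3 null libraries, Des in 2 R172H libraries and Myog in none.

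The sequence under the left-end peak is shown because it is the place where the lines differ most at this locus. The RefSeq promoter table (GRCm38.p6) holds 300-base windows, from 250 bases before a gene's start to 50 after it. Of the 4 genes with an end in the window, Wt1os and Them7 were used here, and Wt1 was not matched. The Wt1os window, chr2:105126461-105126760 on the minus strand, contains the left end of Wt1. All 300 of its bases lay inside the peak in each R172H library, and 0 in each R245W and null library. The Them7 window, chr2:105224092-105224391 on the plus strand, is shown beside it as the gene start with the opposite pattern. Its bases inside a peak numbered 0 in every R172H library, 262, 249 and 300 in R245W libraries and 0 in every null library. Both are written 5′ to 3′, with matches to a motif in capitals.
Wt1os: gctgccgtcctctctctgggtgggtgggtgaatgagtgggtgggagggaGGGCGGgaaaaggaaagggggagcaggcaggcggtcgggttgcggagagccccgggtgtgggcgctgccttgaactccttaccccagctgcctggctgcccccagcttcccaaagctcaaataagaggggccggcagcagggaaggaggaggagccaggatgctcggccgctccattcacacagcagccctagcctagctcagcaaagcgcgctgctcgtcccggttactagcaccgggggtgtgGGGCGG
Them7: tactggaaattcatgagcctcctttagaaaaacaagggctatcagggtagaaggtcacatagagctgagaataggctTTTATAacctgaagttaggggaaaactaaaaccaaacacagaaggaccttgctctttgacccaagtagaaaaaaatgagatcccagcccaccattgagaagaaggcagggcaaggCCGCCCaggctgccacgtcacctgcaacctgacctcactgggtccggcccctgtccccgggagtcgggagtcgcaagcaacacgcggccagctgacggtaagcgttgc

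The Wt1os window was rich in G and C, at 66.7%, with 16 CpG dinucleotides, against medians of 52.7% and 7 over 32851 promoter windows. Them7 had 52.7% and 10. Searched on both strands, the GC box GGGCGG, a site read by Sp1-type factors, occurred 2 times in the Wt1os window and 1 time in the Them7 window, and 35.7% of all promoter windows held it. The TATA box TATAAA occurred 0 times in the Wt1os window and 1 time in the Them7 window, against 13.6% of all windows. Neither window held the EGR motif GCGGGGGCG (2.91% of windows), the WT1 motif GCGTGGGAG (0.472%), CCAAT (37.4%), TGACTCA (5.2%), CACGTG (7.15%) or TGTGGT (16.8%). A match, or its absence, describes letters only.

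The left-end peak spanned 105126162 to 105127563, 105126149 to 105127670 and 105126172 to 105127578 in R172H replicates 1, 2 and 3, so it was 1402, 1522 and 1407 bp wide. Its summit lay 60, 62 and 3 bp inside Wt1 from the left end. No library of R245W or of null had a peak over this stretch or within 1000 bp of the left end. A pile-up is the peak caller's count of overlapping fragments or reads at a position, and which of these it counted is not stated. Pile-ups at the summit were recovered from the authors' fold and p-value. They were 597, 597 and 582 in R172H replicates 1, 2 and 3. The lowest pile-up listed for any peak at the most frequent background was 14 to 15 in R245W libraries and 13 to 15 in null libraries, which shows how small a pile-up those lists could hold. A pile-up was also scaled by the library's median at the 36473 regions called in all 9 libraries, and on that scale the R172H values were 5.63, 5.19 and 5.49, all well above the library's typical shared region.

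Within the R172H libraries this peak ranked at the 99.2, 98.6 and 98.9 percentile of -log10 q, the percent of the library's peaks at or below its value. By fold over local background its percentiles were lower, at 86.6, 82.6 and 85.7 in R172H replicates 1, 2 and 3. By the lowest of its 3 ranks by -log10 q it was the first of the 14244 regions called in 3 of 3 R172H and 0 of 3 R245W libraries, the contrast for which the gene was chosen. The next region stood at 98.2, and the median of these regions was 32.9. The 12214 regions called in R172H libraries and in neither other line are a part of these 14244, so its first place among them follows. It ranked 3 of the 18022 called in R172H and not in null.

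**Figure D1:**
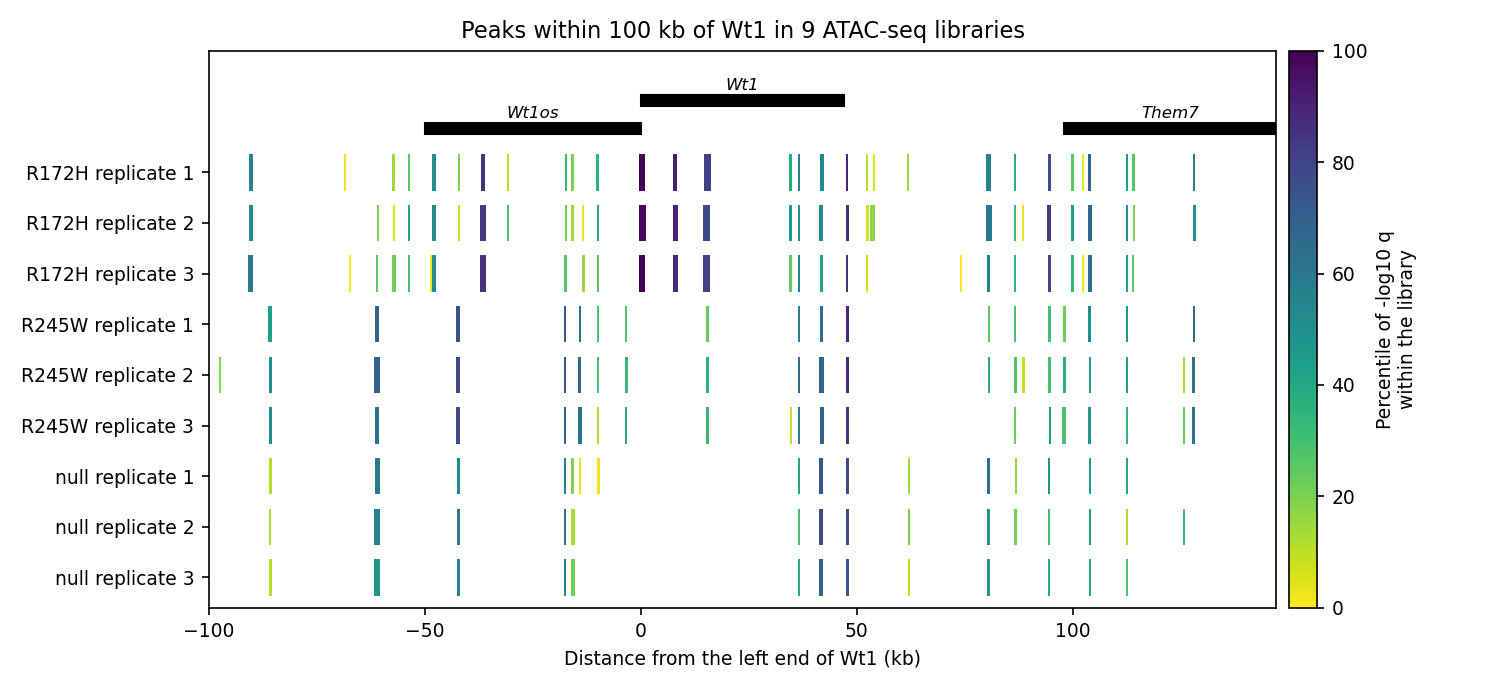
Peaks within 100 kb of Wt1 in each library (rows: R172H, R245W and null, replicates 1 to 3), drawn at their width along the distance from the left end of Wt1 in kb and coloured by the percentile of -log10 q within the library, with the spans of Wt1os, Wt1 and Them7 above. R172H rows hold 28 to 30 peaks, with the darkest at 0 kb, where the R245W rows (18 to 21 peaks) and null rows (13 to 16 peaks) are blank.

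Counted over the whole window, R172H libraries held the most peaks. There were 30, 30 and 28 in R172H replicates 1 to 3, 18, 21 and 19 in R245W replicates and 16, 15 and 13 in null replicates. The means were 29.3 ± 1.15, 19.3 ± 1.53 and 14.7 ± 1.53 (SD, n = 3 libraries each), and the ranges of the lines did not overlap. Peaks covered 19.9 ± 1.302 kb in R172H, 12.0 ± 1.17 kb in R245W and 8.40 ± 0.613 kb in null libraries. Windows of the same flank around all 21883 protein-coding genes had a median of 11 or 12 peaks in R172H libraries, 12 or 13 in R245W libraries and 10 or 11 in null libraries. As many peaks as at Wt1 were found at 1.82% to 3.3% of genes in R172H libraries, at 19.6% to 28.2% in R245W libraries and at 28.9% to 41.5% in null libraries. The width of members ran up to 1697 bp in R172H, 1239 bp in R245W and 1243 bp in null libraries.

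The rest of the members lay on both sides of the left end. The left flank held 11.3 ± 0.577 peaks per R172H library, 7.33 ± 0.577 per R245W library and 5.67 ± 1.15 per null library, and the right flank 12 ± 1 per R172H library, 8.67 ± 1.15 per R245W library and 7 ± 1 per null library. Inside the span, the left-end peak not counted, each R172H library had 5 peaks, R245W libraries had 3, 3 and 4, and each null library had 2. Around the left end, R245W libraries had no peak over 18.3, 18.0 and 18.2 kb, and null libraries over 46.0, 51.7 and 51.6 kb. Stretches at least as long made up 34.6%, 34.1% and 35.2% of all stretches between peaks in R245W libraries and 14.5%, 12.6% and 12.6% in null libraries. Peaks flanked the stretch on both sides within the window in all 6 of these libraries.

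By region, 10 of the 42 were called in 3 of 3 R172H and 0 of 3 R245W libraries, a share of 23.8%, where the percent of all regions called that way was 11.5. In the reverse direction there were 4, against 13.8% of all regions. This is the contrast the gene was chosen on, and nothing is read from these shares. Against null, 12 regions were called in 3 of 3 R172H and 0 of 3 null libraries (14.5% of all regions) and 1 in the reverse direction (10.3%), whatever the calls in R245W. Between the other lines, 4 regions were called in R245W and not in null (10% of all regions) and 2 in null and not in R245W (4.03%). In windows of the same flank, 126 of 21883 protein-coding genes had 10 or more regions in R172H and not R245W, and the median gene had 1. In the reverse direction 4 or more were found at 22.3% of genes. As Wt1 was chosen on this contrast, nothing is read from its place among genes either.

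Looked at over 3 lines at once, 7 regions were called in all 9 libraries (29.4% of all regions), 10 in R172H alone (9.83%), 2 in R245W alone (5.79%), 1 in both R172H and R245W (3.04%) and 1 in both R245W and null (6.21%). No region was called in null alone (2.74%) or in R172H and null without R245W (0.858%). The other 21 were called in only part of at least 1 line, and 5 of them in a single library.

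The regions called in R172H alone were not equally strong. The strongest after the left end lay inside the gene, starting 7404 bp from its left end, at 105133933 to 105135053, where the pile-ups were 330, 352 and 308 in R172H replicates 1 to 3 and the percentiles 91.2, 90.2 and 88.6. Another lay in the left flank over Wt1os, at 105089332 to 105090590, with a pile-up of 212 in each R172H library and percentiles of 85.4, 84.2 and 85.8. These 3 stood above 99.99%, 99.1% and 97.9% of all regions called in R172H alone, by their lowest percentile. Of the other 7, regions at 105035653 and 105078167 had lowest percentiles of 51.4 and 51. The remaining 5, from 4.31 to 25.9, were among the weaker peaks of their lists by -log10 q. By mean scaled pile-up the order differed, with 0.552 and 0.498 at 105035653 and 105078167. Among the 5 it was 0.640 at 105178573, 0.502 at 105226144, and 0.212, 0.292 and 0.270 at 105068961, 105072596 and 105240220.

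Another strong region inside the gene was shared with 1 other line at a lower level. At 105140879 to 105142670, starting 14350 bp from the left end, the pile-ups were 221, 213 and 220 in R172H replicates and 29, 41 and 37 in R245W replicates, and no null library had a peak. Scaled, they averaged 2.004 ± 0.132 in R172H and 0.248 ± 0.0306 in R245W libraries (SD, n = 3 each). The peak was 1486, 1677 and 1697 bp wide in R172H libraries and 460, 604 and 690 bp in R245W libraries, so it was lower and narrower there.

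Some regions of the left flank had the opposite order. At 105083794 to 105084725, over Wt1os, pile-ups were 24 and 20 in R172H replicates 1 and 2 with no peak in replicate 3. They were 116, 138 and 132 in R245W replicates and 54, 78 and 64 in null replicates. The percentiles were 20.3 and 7.53 in the R172H libraries, 74.2, 77.8 and 77.5 in R245W and 51.0, 60.5 and 55.5 in null libraries, so this region was high where the left end had no peak.

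Beyond Wt1os, at 105064801 to 105066089, the same order was seen. Pile-ups were 25 and 26 in R172H replicates 2 and 3, 90, 105 and 80 in R245W replicates and 67, 72 and 53 in null replicates. The region at 105040281 to 105041227 had no peak in any R172H library, with pile-ups of 45, 59 and 55 in R245W and 21, 24 and 22 in null libraries. Nearer to the gene, at 105111936 to 105112872, R245W libraries had 112, 134 and 119, null replicate 1 had 23, and no R172H library had a peak.

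The R245W line had 2 regions of its own. One, at 105122881 to 105123602, ended 2927 bp before the left end of Wt1 and had pile-ups of 32, 38 and 41, at the 28, 33 and 37.1 percentile. The other lay over the start of Them7, a gene named for its membership of the thioesterase superfamily, at 105224033 to 105224944, and had pile-ups of 29, 42 and 36. Both were weak next to the left-end peak of the R172H line. Them7 was the only named gene within 1 Mb with an end open in 3 of 3 R245W and in no R172H or null library.

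The 7 regions called in all 9 libraries allow levels to be compared. The one with the highest mean in R172H and R245W libraries began 301 bp past the right end of Wt1, at 105173915 to 105174655. Its scaled pile-up was 3.03, 2.52 and 2.56 in R172H replicates, 1.397, 1.36 and 1.22 in R245W replicates and 1.098, 1.01 and 0.885 in null replicates, without overlap between R172H and the others. The difference in log2 scaled pile-up was 1.02 (SE 0.103) for R172H minus R245W and 1.44 (SE 0.124) for R172H minus null. The summit also lay elsewhere, at 47831 bp from the left end of Wt1 in each R172H library and between 47922 and 47931 bp in the other 6.

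Of the 7, all R172H values exceeded all R245W values at 6 and fell below them at 1, while over all 36473 such regions the shares were 51.8% and 26.8%. Against null, R172H was higher at 5 and lower at 2, where the background was 51% and 28.1%. R245W was above null at 3 and below at 1 (32.3% and 38.1%). The region with the largest log2 difference between R172H and each other line began 94017 bp from the left end of Wt1, at 105220546, where the scaled pile-up was 1.34 ± 0.194 in R172H, 0.267 ± 0.0541 in R245W and 0.327 ± 0.0682 in null libraries (SD, n = 3 each). The region lower in R172H than in both other lines ended 17234 bp before the gene and began at 105108764, with 0.289 ± 0.0435 in R172H, 0.968 ± 0.0176 in R245W and 0.659 ± 0.04997 in null libraries.

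The level over the chromosome differed between the lines as well. Over the 2971 regions on chromosome 2 called in all 9 libraries, the median difference in log2 scaled pile-up was 0.47 for R172H minus R245W and 0.56 for R172H minus null. Over the 141 of them within 5 Mb of Wt1 it was 0.46 and 0.61, and over all chromosomes 0.23 and 0.21. At the 7 regions near Wt1 the R172H minus R245W difference ran from -1.76 to 2.33. At those beginning at 105108764, 105167770 and 105238775 it was -1.76, 0.30 and 0.45, below the median of the chromosome, and at the others above it. R172H minus null was -1.20 and -0.34 at 105108764 and 105167770, opposite in sign to the chromosome's median for that difference. At the other regions it was above that median. The part of copy number in the differences at Wt1 was not tested.

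**Figure D2:**
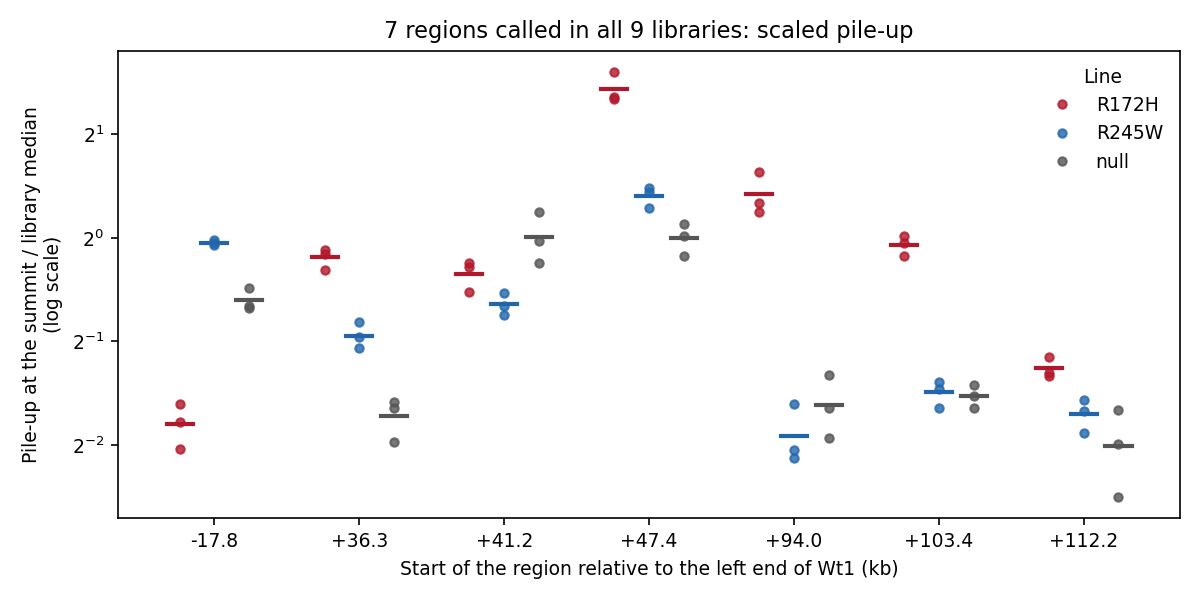
Summit pile-up divided by the library's median at regions called in all 9 libraries (log axis), for the 7 such regions within 100 kb of Wt1, placed by the start of the region relative to the left end of Wt1 in kb. Points are libraries, bars are means of 3, in R172H (left), R245W (middle) and null (right). R172H points are the lowest of the 3 lines at the leftmost region, and at the region past the right end they lie at 2.52 to 3.03, above all others.

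The local background around the gene was also high in R172H libraries. This is the pile-up the peak caller took as background at the summit, and here it was divided by the most frequent background of the library. Whether reads of the peaks themselves entered this background is not stated, so it is no measure separate from the peaks. At the left-end peak it was 9.90, 9.79 and 9.76 in R172H replicates 1 to 3. Over all 21 R172H peaks from the left end to 1 kb past the right end its median was 6.22, with a range of 3.67 to 9.90. In the same stretch it had a median of 1.19 (1.00 to 1.87) over 13 R245W peaks and 1.295 (1.00 to 1.94) over 9 null peaks. Over all peaks of a line the median was 1.47 in R172H, 1.48 in R245W and 1.65 in null libraries, so it was high in R172H libraries at the gene and not over the whole list. In R172H libraries the median was 1.13 over the 34 peaks of the left flank and 2.15 over the 36 of the right flank.

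Fold over background and pile-up therefore ranked the lines differently at the region past the right end. The authors' fold there was 8.16 ± 1.05 in R172H libraries, 16.04 ± 0.809 in R245W and 16.3 ± 1.46 in null libraries (SD, n = 3 each), while the pile-ups were 321, 290 and 271 in R172H replicates, 190, 208 and 171 in R245W replicates and 135, 143 and 116 in null replicates. At the left-end peak the fold was 12.4, 11.2 and 12.2 in R172H libraries.

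**Figure D3:**
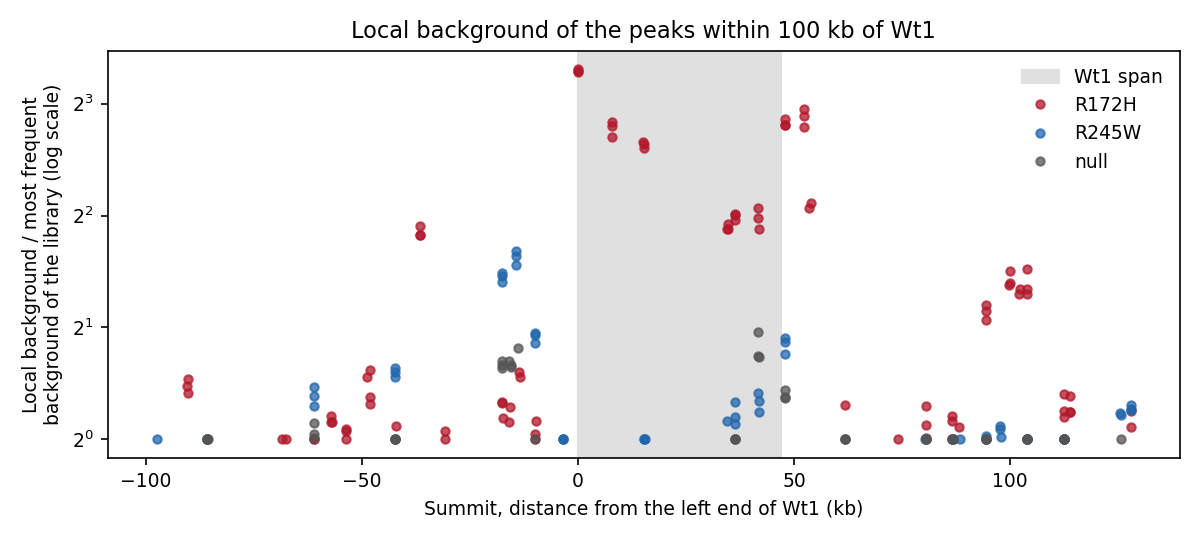
Local background at the summit of each peak within 100 kb of Wt1, divided by the most frequent background of its library (log axis), against the distance of the summit from the left end of Wt1 in kb. Each point is 1 peak of R172H, R245W or null libraries, and the grey band is the Wt1 span. R172H points lie at 3.67 or above throughout the span, while R245W and null points there stay at 1.94 or below.

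The borders of the window fell between peaks. On the left, the last peak inside the window lay 85310 to 97332 bp from Wt1, at percentiles of 10.7 to 59.3, and the first outside it lay 108920 to 109015 bp away, at 87.2 to 93.9. That outer peak was at the start of Eif3m, a translation initiation factor subunit gene open in all 9 libraries. On the right, the last inside lay 65166 to 80812 bp away, at percentiles of 24.9 to 66.7, and the first outside 160468 to 224817 bp away, at 23.0 to 90.6.

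From 100 kb to 1 Mb on both sides together, R172H libraries had 45 ± 2 peaks, R245W libraries 44 ± 1.73 and null libraries 31.7 ± 2.08 (SD, n = 3 each). The R172H and R245W ranges, 43 to 47 and 43 to 46, overlapped there, unlike in the window. Of the 22 named genes that reach within 1 Mb of Wt1, 12 had an open end in all 9 libraries and 7 in none. The shares over all protein-coding genes were 55% and 31.3%. The 22 include non-coding RNA genes, so the sets are unlike and nothing is read from these counts. Besides Wt1 itself and Eif3m, the 12 were Hipk3, a protein kinase gene, Cstf3, an mRNA cleavage factor gene, Tcp11l1, Depdc7, Prrg4, Rcn1, a calcium-binding protein gene, Elp4, Immp1l, Dnajc24 and the non-coding RNA gene Platr14. The 7 open in none were Mir1902, Pin1rt1, Ccdc73, Dcdc5, Pax6, a transcription factor of eye development, and its non-coding neighbours Pax6os1 and Paupar. Qser1 was open in 2 R245W libraries, with a lowest percentile of 95.4. A non-coding gene without a proper name overlaps its right end and had the same lowest R245W percentile. That gene was open in 3 of 3 libraries of each line, so no difference between lines is read at Qser1. Wt1os, with the same left-end peak as Wt1, was open in all 3 R172H libraries and in no R245W or null library. The remaining 19 genes have no proper name.

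**Figure D4:**
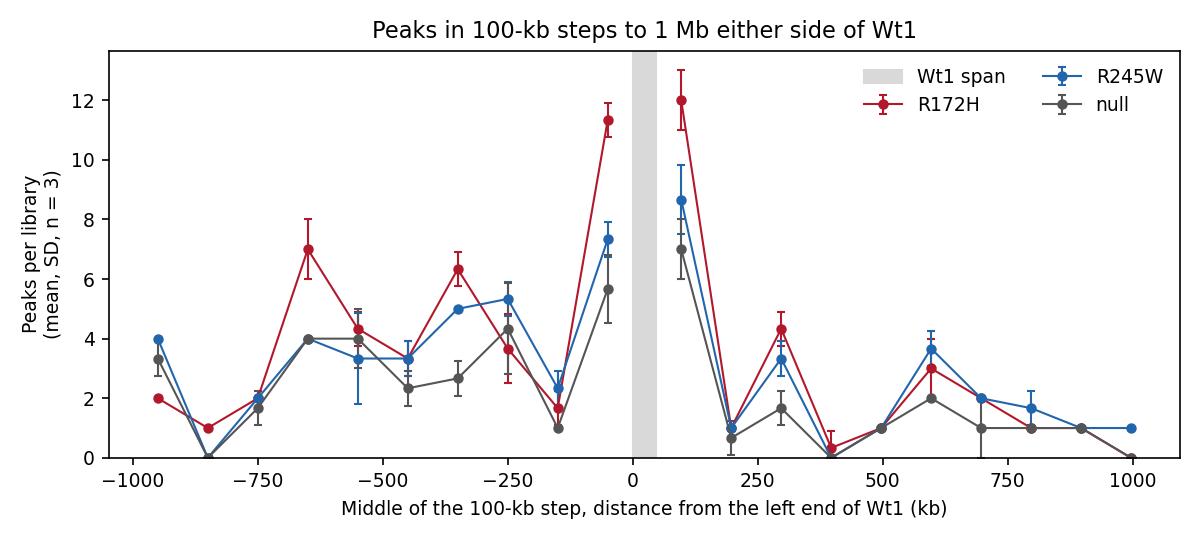
Peaks per library in 100-kb steps to 1 Mb either side of Wt1, by the distance of the step's middle from the left end of Wt1 in kb. Points are means and bars SD of 3 libraries of R172H, R245W or null. In the steps next to the gene R172H libraries hold 11.3 peaks on the left and 12 on the right on average, more than the other lines, while R245W and null libraries overlap there.

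Counting both ends together hides the left end, because the peak 301 bp past the right end lies within 1000 bp of it in every library. By the highest percentile at either end, Wt1 therefore stood at 99.2, 98.6 and 98.9 in R172H, 87.6, 87.5 and 84.1 in R245W and 78.3, 77.4 and 72.7 in null libraries. Ranked by fold in place of -log10 q, the strongest peak of the window had a lowest percentile of 85.9 in R172H, 98.6 in R245W and 95.0 in null libraries, so the R172H line was then the lowest. In R172H replicates 2 and 3 the strongest peak by fold was not at the left end. It lay in the right flank, from 105220546 and 105220682, at 92.7 and 85.9, where the left-end peak had 82.6 and 85.7. The genes with the most similar profile, by Euclidean distance over the 9 libraries among 14503 genes, were Jup, which encodes the junction protein plakoglobin (8.77), Fignl2 (8.97), Hrh3, a histamine receptor gene (9.46), Fa2h, a fatty acid hydroxylase gene (10.1), and Itga1, an integrin gene (10.7). The median distance was 41.0. At Jup the percentiles ran from 94.3 to 95.1 in R172H, from 85.3 to 89.5 in R245W and from 76.2 to 79.0 in null libraries. This likeness rests on both ends at once and says nothing of the left end alone.

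Genes tied to WT1 were followed through 6 lists of partners, regulators, targets and tissue markers, 63 genes in all, of which 39 (61.9%) had an open end in all 9 libraries, against 55% of 21883 protein-coding genes, and 8 in none, against 31.3%. The 8 partner genes were open in all 9 libraries, among them Basp1, a co-repressor bound by WT1, Ciao1, Cited2 and Pawr. Of the 5 regulators of Wt1, Gata2, Myb and Sp1 were open in all 9 libraries, and the paired-box genes Pax2 and Pax8 in none. In all, 8 genes (12.7%) were open in 3 of 3 R172H and 0 of 3 R245W libraries, against 1.61% of all genes, and 1 in the reverse direction, against 2.57%. Against null, 11 genes (17.5%) were open in 3 of 3 R172H and 0 of 3 null libraries, against 3.19%, and 0 in the reverse direction, against 1.27%, whatever the calls in R245W. For R245W and null the counts were 4 (background 3.3%) and 0 (0.544%). The lists were drawn up with results of these libraries known, and some of the genes had been seen to differ, so the counts are no independent evidence.

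Among 28 target genes, Aldh1a2, a retinoic acid synthesis enzyme gene that is also a mesothelial marker, had an end open in R172H alone, at percentiles of 80.2 to 80.7. Itga4, an integrin gene, was likewise open in R172H alone, at 26.5 to 46.6. Bmp7, a growth factor gene of kidney development, was open at 89.0 to 89.7 in R172H, in no R245W library and in 1 null library at 0.601. Sall1, a kidney transcription factor gene, was open at 26.3 to 27.1 in R172H, in 2 R245W libraries and in no null library. Six2, which marks kidney progenitors, went the other way and was open in R245W alone, at 47.2 to 58.7. Of the 18 target genes open in all 9 libraries, Areg, Bcl2, Csf1 and Egfr are examples.

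The podocyte gene Nphs1, which encodes nephrin, was open in R172H alone, at 30.1 to 42.3, while Podxl and Synpo were open in all 9 libraries. Synpo encodes the actin-binding protein synaptopodin. Its percentiles had the opposite order, at 30.0 to 40.9 in R172H, 73.9 to 79.2 in R245W and 75.5 to 81.8 in null libraries. Of the gonad genes, Amhr2, the receptor gene for anti-Müllerian hormone, was open in R172H alone, at 24.4 to 32.9. Amh, Gata4 and Sox9 were open in all 9 libraries, with Amh, the hormone gene itself, at 50.1 to 57.5 in R172H, 53.4 to 61.3 in R245W and 75.8 to 80.0 in null libraries.

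Genes of the mesothelium and epicardium had the highest share open in R172H and not in null among the 6 lists, at 53.8%. Of 13, 4 were open in 3 of 3 R172H and 0 of 3 R245W libraries, against 1.61% of all protein-coding genes, and 7 in 3 of 3 R172H and 0 of 3 null libraries, against 3.19%. This list too was drawn up with results of these libraries known. Its rank, its shares and the sum over markers below are therefore description and no independent evidence. Msln, which encodes the surface protein mesothelin, was open in R172H alone at 62.3 to 69.2, as were the uroplakin gene Upk1b at 67.2 to 72.4 and the mucin gene Muc16 at 63.3 to 69.3. Bnc1, a transcription factor gene, was open at 78.0 to 79.9 in R172H and at 25.0 and 25.1 in 2 R245W libraries. The keratin gene Krt19 and the membrane protein gene Gpm6a were open in all R172H and all R245W libraries, with percentiles of 31.6 to 47.0 and 58.1 to 68.2 in R172H and of 4.56 to 14.7 and 14.4 to 20.3 in R245W libraries. Tcf21, a transcription factor gene of the epicardium, was open in 3 R245W libraries at 55.9 to 61.8 and in 1 R172H library. Krt8, Lrrn4, Tbx18 and Upk3b were open in all 9 libraries, and Krt18 in none. Summed over the 4 mesothelial markers Msln, Upk1b, Upk3b and Lrrn4, the percentiles came to 271 to 283 in R172H, 90.4 to 108 in R245W and 86.7 to 111 in null libraries, with Msln and Upk1b at 0 in the R245W and null libraries. Msln, Upk1b and Upk3b, markers of another cell type, thus had their highest percentiles where the left end of Wt1 was open. Upk3b stood at 84.4 to 85.5 in R172H, 45.8 to 53.6 in R245W and 25.1 to 46.0 in null libraries. The percentiles of Lrrn4 were not highest there, at 56.1 to 61.3 in R172H, 44.5 to 54.2 in R245W and 61.5 to 65.3 in null libraries. Nor were those of Tbx18 of the longer list, at 83.8 to 86.6 in R172H, 86.6 to 88.2 in R245W and 79.6 to 81.6 in null libraries. These are ranks within lists of unequal length, so no change in level is read from them. The part of these markers in the result was not tested.

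**Figure D5:**
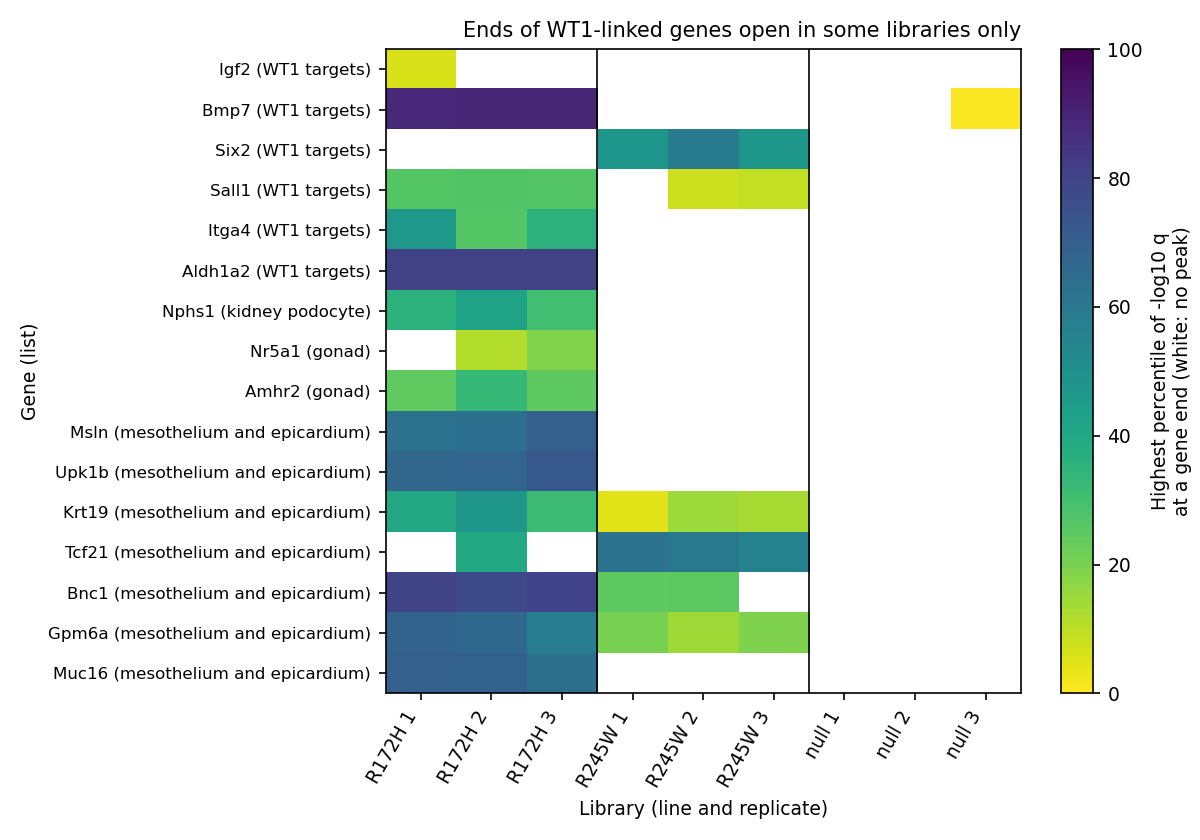
Highest percentile of -log10 q of a peak within 1000 bp of a gene end, by library (columns: R172H, R245W, null), for the 16 WT1-linked genes open in some libraries only, with white for no peak. Msln, Upk1b, Muc16 and Aldh1a2 are filled in the R172H columns alone, at 62.3 or higher, and Six2 in the R245W columns alone.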

How the data were processed

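ATAC-seq libraries of 3 mouse osteosarcoma lines, 3 per line, were analysed from the deposited narrowPeak lists, 1 per library, not pooled. The submitters' processing notes name MACS2 2.1.0, Bowtie 1.1.2, Trimmomatic 0.33, bcl2fastq 2.17 and deepTools, and the build GRCm38. The sources used here give no settings or read filters, and do not say whether reads were shifted for the Tn5 cut, which would displace peak borders slightly. For each peak the deposited lists hold a score, a ratio (fold over local background), a -log10 p-value and a -log10 q-value, all from the authors' peak caller. These values describe and rank peaks only inside their own list. By library, the lowest -log10 q was 1.30 to 1.42, near a q of 0.05. Ranks from lists of unequal length show no change by themselves.

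MACS2 derives fold and p from the pile-up and a Poisson expectation, with 1 added to both for the fold. Both unknowns were solved for every peak with the pile-up held to whole numbers, and the p was met within 0.01 on the -log10 scale for 100% of peaks. On data simulated with the same formulas, 4866 of 4866 pile-ups were recovered. This checks the solving only, not that the authors' values follow these formulas. Gene spans came from RefSeq (GRCm38.p6) in a table without exons, so exonic or intronic position is not stated. A gene counted as open where any peak came within 1000 bp of its start or its end.

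The members and lists were chosen with earlier results of these data known. Named genes were Wt1, genes within 1 Mb, list members open in 3 of 3 libraries of a line and 0 of 3 of another, up to 4 examples per list open in all 9 libraries, and the 5 genes most like Wt1. Some list genes enter the counts and are not reported here by name. Other thresholds, list lengths, flanks, gene-end windows and merging rules were tried, and each library was left out in turn. An exact two-sided test of 3 against 3 libraries cannot go below 0.1, and none was run. Software was Python 3.11.15 with matplotlib 3.10.9, scipy 1.17.1, pandas 2.3.3 and numpy 2.4.6.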

Additional observations from a re-analysis of the deposited data

How the results depend on the processing

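Mean peak number was highest in R172H and lowest in null libraries under every alternative run for it. With -log10 q of 5 or more the R172H mean was 24.7 peaks, and with equal list lengths it was also 24.7. With a flank of 50 kb the mean was 19.7 for R172H, 12.3 for R245W and 10.3 for null libraries, and with 200 kb it was 32 for R172H, 22.7 for R245W and 16.3 for null libraries. At 50 kb the region counts were 5 for R172H and not R245W, 2 for the reverse, 7 for R172H and not null, 0 for the reverse and 2 for R245W and not null, since fewer regions are in reach. Merging summit windows of 250 bp, or asking for calls in 2 or more of 3 libraries, moved no count by over 1.5 times. By the percentile of fold in place of -log10 q, the lowest value for the strongest peak of the window was 85.9 in R172H, 98.6 in R245W and 95.0 in null libraries, so R172H was then the lowest of the 3 lines. The R172H value was that of a right-flank peak from 105220682 in replicate 3, not of the left-end peak. With equal list lengths the lowest percentile of -log10 q for the strongest peak was 81.6 in R245W libraries. The list genes open in R245W and not null then numbered 2. Leaving out 1 library at a time gave means of 29 to 30 peaks for R172H, 18.5 to 20 for R245W and 14 to 15.5 for null libraries, and 98.6 to 98.9 for the strongest peak in R172H, 84.1 to 87.5 in R245W and 72.7 to 78.2 in null. Without R172H replicate 1, 2 regions were called in null and not R172H (range 1 to 2), and without R172H replicate 2, 2 list genes were open in R245W and not R172H (range 1 to 2). Scaling pile-ups by the most frequent background, chosen after seeing the data, moved no value beyond its SD. No paired analysis was possible because no result comes from a test. Depth is unknown, so a missing peak shows only that none was listed.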
